A study of Homo sapiens with 8 samples.

Results

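The step from 4 to 8 h of interferon-beta (IFN-β) was followed in 2 human cell lines, on 4 of the 8 arrays of the series. The cells were U6A, a fibrosarcoma line that lacks STAT2, and they had been made to express either STAT2 with the T387A substitution or wild-type STAT2. Both lines received IFN-β at 100 IU/ml for 0, 4, 8 or 24 h, and each line and time gave 1 Illumina bead array. The arrays at 8 h (T387A and wild type) were set against the arrays at 4 h (T387A and wild type), and those at 0 and 24 h served to say where a gene had come from and where it went next. All 8 samples share the host cells and the absence of endogenous STAT2, untransfected cells and cultures kept without IFN-β for 4, 8 or 24 h are not analysed here, and the labels do not say whether a line is 1 clone or a pool. STAT2 itself was not analysed here.

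Type I interferon binds a receptor whose kinases activate STAT proteins. STAT2 and IRF9 are parts of the complex ISGF3, which binds the interferon-stimulated response element (ISRE) at the promoters of interferon-stimulated genes. The gamma-activated site (GAS) is another kind of element in interferon-responsive promoters. Many of the induced products are antiviral effectors, others present antigen, and a few, such as USP18, damp the receptor's own signal.

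Values are linear probe intensities with the arrays' background removed, and 10.7 was used as the floor under which a value has no order. A gene is represented by its brightest probe. Of 20045 genes, 13656 were above the floor on at least 1 array and 6092 reached an intensity of 100 on at least 1 of the 4 arrays. The cells carried the markers their label implies: 6 of 9 mesenchymal markers reached 100, with a summed intensity of 30961 to 32429 at 8 h and 30807 to 31240 at 4 h. Of 12 epithelial, leukocyte and endothelial markers, 4 were above the floor on any array, none reached 100, and their sum was 54.8 to 65.5 at 8 h and 56.7 to 86.2 at 4 h.

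Between 4 and 8 h, the genes that moved alike in both lines mostly stood higher at 8 h. Of the 120 higher genes described next, 83 belonged to the genes induced by IFN-β over 0 h. That set holds 2.49% of the 6253 genes at 100 or more on any array at 0, 4 or 8 h. Its rule takes in the 8 h value. Of the 6092 genes at 100 or more, 120 (1.97%) were at least 1.5-fold higher at 8 h in both lines and 9 (0.148%) at least 1.5-fold lower. At 2-fold the counts were 56 higher (0.919%) and 0 lower (0.0%). In single lines, 202 genes in T387A cells and 176 in wild-type cells were 1.5-fold higher, and 94 in T387A cells and 37 in wild-type cells were 1.5-fold lower. The step of the median gene at 100 or more was -0.02 (log2) in T387A cells and -0.01 in wild-type cells, and the steps of a gene in the 2 lines differed by a median of 0.15. Any shift in the same direction in both lines was seen for 1884 genes upwards and 2207 downwards, so the excess of higher genes lay in the large steps.

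With the lines as the only replicates, no gene passed an adjusted p under 0.05 in limma's test across the 13656 genes (0 calls, 0.0%). The smallest adjusted p was 0.241, and 1346 genes had an unadjusted p under 0.05, 757 higher and 589 lower. These p-values measure how far the 2 lines depart from parallel courses over the 4 times, not the spread between cultures. Each line was sampled once at each time. A floor at 100 gave 56 higher and 10 lower genes among 6335. When the same test was run over the 5771 genes that averaged at least 100 over the 8 arrays, which is a restriction made once the values were known, 159 genes came out higher (2.76%) and 36 lower (0.624%). That count was 37 higher and 2 lower without the wild-type 4 h array, 58 and 2 without the T387A 8 h array, 94 and 17 without the wild-type 8 h array, and 99 and 4 without the T387A 4 h array. It was 200 and 63 without the T387A 24 h array and the same without the wild-type 24 h array. A gene can reach the average of 100 through the times at which it is high, as IFI44L and CCL5 did, so the restriction is not independent of a rise. USP18, DDX60, CXCL10, TRIM22, SAMD9L, MX1, HLA-F, RNF19B and CASP1, among others, reached it through their 8 and 24 h arrays. The adjusted p of such a gene is no separate support for its rise. Below, a gene is said to have risen or fallen only if it was called among those 5771 genes, and its adjusted p from limma (Benjamini-Hochberg) is the one in that fit, as is its SE. These calls rest on the line term, which pairs the arrays of a line: without it the same 5771 genes gave 0 higher and 0 lower calls, with 771 at an unadjusted p under 0.05 and a smallest adjusted p of 0.0628. The floor at 100 gave no adjusted p under 0.0420. With it, 30 of the 68 genes chosen for naming that were called among the 5771 were called again, just under 0.05. The other 38 were not, at adjusted p values between 0.0516 and 0.930, among them IFI44L (0.562), CXCL10 (0.280), HLA-F (0.206), TRIM22 (0.123), RSAD2 (0.0686), MX1 (0.0592), IFIT1 (0.0752), HLA-B (0.0516) and GBP1 (0.0588). Of the genes named below, the calls of SAMD9L, OAS2, OASL, HERC6, PSMB9, PARP14, B2M, NMI, RNF19B, CCL5, CERK, UBE2J2, TSC22D3, DDIT3, PPP1R15A and LSS also ended there.

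**Figure D1:**
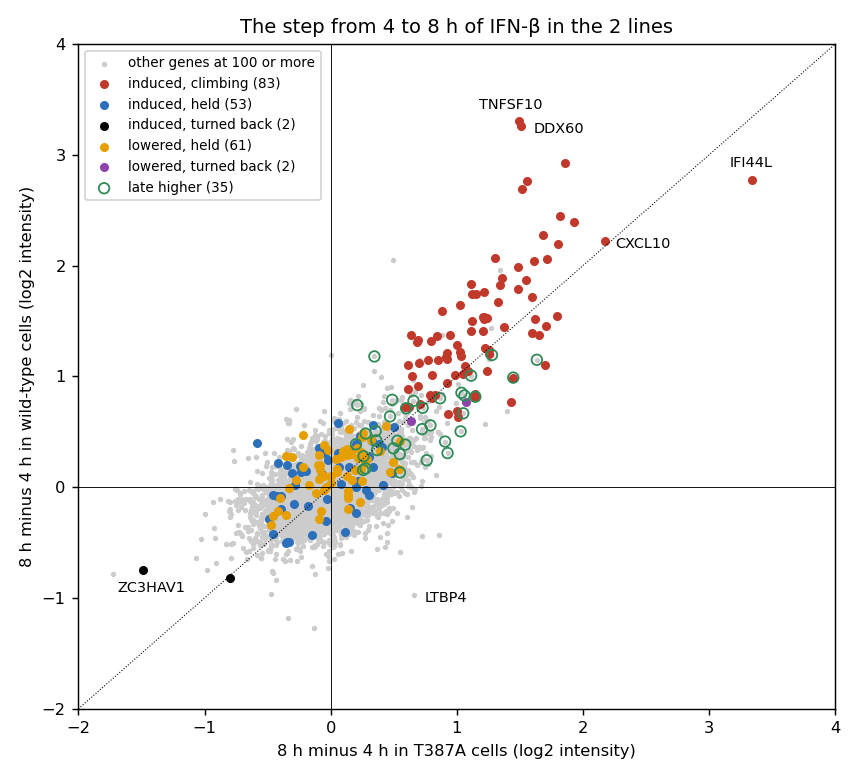
Each point is a gene at an intensity of 100 or more, with its 8 h minus 4 h difference (log2 intensity) in T387A cells on the horizontal axis and in wild-type cells on the vertical axis; colours give the course over 0, 4 and 8 h, and the dotted line marks equal steps. The 83 climbing genes lie in the upper right, most of them above the line of equal steps, while held genes (53 induced, 61 lowered) surround 0.

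Genes were sorted by their course in both lines. A gene was called induced if the mean of its 4 and 8 h levels was at least 1.5-fold above 0 h in both lines, and 156 genes met this. They were then split by the step from 4 to 8 h: 83 were climbing (1.5-fold or more higher in both lines), 53 were held (within 1.5-fold in both lines), 2 had turned back (1.5-fold or more lower in both) and 18 did one thing in 1 line and another in the other. In the same way 72 genes were lowered, of which 0 were still descending, 61 were held, 2 had turned back upwards and 9 were mixed. Since the 4 and 8 h values define these classes, their steps are descriptions. The class rule did not use the 24 h arrays or the promoters, while the gap between the lines and the change from 8 to 24 h share the 4 or 8 h values with it. The induced rule also takes in the 8 h level, so a gene that is higher at 8 h enters it more easily and one that is lower leaves it more easily. With the set drawn by the 4 h level alone, 143 genes were induced, of which 62 were climbing, 62 held and 3 turned back, and 104 were lowered, of which 82 were held and 6 turned back.

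The climbing genes had a median step of 1.15 (log2) in T387A cells and 1.37 in wild-type cells, on top of a first step, from 0 to 4 h, of 2.07 in T387A cells and 1.28 in wild-type cells. At 4 h the median climbing gene had covered 36.4% of its linear rise to 8 h in T387A cells and 27.3% in wild-type cells. Of the 83 genes, 70 averaged at least 100 and 65 of those rose, against 2.76% called higher over all 5771 genes. The class is defined by the same step that the fit calls, so a high share was built in and is no separate support. Members of the climbing class include antiviral proteins, OAS enzymes, RNA sensors, ISG15 and its enzymes, guanylate-binding proteins and PARPs, which are taken in turn.

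IFI44L, an interferon-induced antiviral protein, was at 200 in T387A cells and 73.3 in wild-type cells at 8 h, against 19.8 in T387A cells at 4 h and a value under the floor in wild-type cells at 4 h. That is 10.1-fold in T387A cells and at least 6.85-fold in wild-type cells. The mean step of 3.06 is likewise a lower bound, as is that of 2.40 for TNFSF10. IFI44L passed the average of 100 only through its later arrays, with 24 h values of 396.1 in T387A cells and 135.0 in wild-type cells. Its adjusted p of 0.000424 is therefore no separate support for the rise. For IFI44L both 8 h arrays lay above both 4 h arrays, which were at or near the floor. The other probe of IFI44L, at up to 29.9, had steps of 0.17 in T387A cells and -0.27 in wild-type cells (mean -0.05).

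TNFSF10, the death ligand TRAIL, was at 376.6 in T387A cells and 105.5 in wild-type cells at 8 h. At 4 h it was already at 134.1 in T387A cells, whereas the wild-type array was under the floor, which gives 2.81-fold in T387A cells and at least 9.86-fold in wild-type cells. The T387A array at 4 h was above the wild-type array at 8 h, so the times overlapped for TNFSF10, which averaged under 100 and was not in the fit on brighter genes. DDX60, a helicase that aids RNA sensing, showed a like split. Its intensity was 295.5 in T387A cells and 186.2 in wild-type cells at 8 h, against 104.1 in T387A cells and 19.4 in wild-type cells at 4 h, with an adjusted p of 0.0135. DDX60 reached the average of 100 through its 8 and 24 h arrays, so that p is no separate support. In wild-type cells DDX60 had not left its 0 h level of 21.0 by 4 h.

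CXCL10, a chemokine that draws T cells, was at 480.3 in T387A cells and 120.9 in wild-type cells at 8 h, against 106.5 in T387A cells and 25.9 in wild-type cells at 4 h. Its steps were nearly equal, 4.51-fold in T387A cells and 4.67-fold in wild-type cells (adjusted p = 0.00881). CXCL10 too reached the average of 100 through its 8 and 24 h arrays, so its p is no separate support. The T387A array was about as high at 4 h as the wild-type array at 8 h.

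Among antiviral effectors that act inside the cell, RSAD2 (viperin, which makes a chain-terminating nucleotide) was at 2124.6 in T387A cells and 1311.1 in wild-type cells at 8 h, against 743.5 in T387A cells and 203.6 in wild-type cells at 4 h (adjusted p = 0.00436). MX1, a dynamin-like GTPase that traps viral nucleocapsids, was at 868.3 in T387A cells and 379.7 in wild-type cells at 8 h, against 269.7 in T387A cells and 78.4 in wild-type cells at 4 h (adjusted p = 0.00249). Its relative MX2 was at 965.5 in T387A cells and 604.9 in wild-type cells at 8 h, against 273.5 in T387A cells and 110.8 in wild-type cells at 4 h (adjusted p = 0.00102). For all 3 genes both 8 h arrays lay above both 4 h arrays. TRIM22, SAMD9L and IFI44 rose with mean steps of 2.16, 2.0 and 1.89, and IFI6, a mitochondrial and endoplasmic reticulum protein, with 1.74 ± 0.15 (SE, adjusted p = 0.000386). The other probe of IFI6, at up to 1926.2, had steps of -0.21 in T387A cells and 0.46 in wild-type cells (mean 0.12).

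Over the whole list of 33 other antiviral effectors, 28 reached 100; 24 of these were 1.5-fold higher in both lines and 1 was 1.5-fold lower, with a median step of 1.29 against -0.02 over all genes at 100 or more. In the fit on brighter genes 26 rose and 1, ZC3HAV1, fell, against 2.76% called higher and 0.624% called lower over all 5771 genes. Past 1.5-fold in both lines, the shares of all genes at 100 or more were 1.97% higher and 0.148% lower. The counts of the lists below stand against the same shares. SHISA5 and TRIM21 were among the members short of 1.5-fold in 1 line, and PNPT1 was lower in both lines, at -0.21 in T387A cells and -0.08 in wild-type cells. SHISA5, TRIM21 and PNPT1 were picked after their values were seen.

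The OAS family rose; OAS1, OAS2 and OAS3 make the 2'-5' oligoadenylates that switch on RNase L, and OASL is a relative without that activity. OAS1 was at 2129.2 in T387A cells and 1532.9 in wild-type cells at 8 h, against 956.8 in T387A cells and 456.8 in wild-type cells at 4 h, a mean step of 1.45 ± 0.17 (SE, adjusted p = 0.0020). The mean steps of the 4 members measured, OAS1, OAS2, OAS3 and OASL, spanned 1.23 to 1.45. OAS2 was at 5474.5 in T387A cells and 3823.7 in wild-type cells at 8 h, against 2512.0 in T387A cells and 1144.8 in wild-type cells at 4 h.

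The IFIT proteins bind viral RNA that lacks host cap marks, and they were already high at 4 h. IFIT1 was at 14924 in T387A cells and 11146.9 in wild-type cells at 8 h, against 8261.5 in T387A cells and 5020.9 in wild-type cells at 4 h (adjusted p = 0.0104). IFIT2 was at 7192.5 in T387A cells and 4335.7 in wild-type cells at 8 h, against 4715.2 in T387A cells and 2024.6 in wild-type cells at 4 h, where the T387A array exceeded the wild-type 8 h array. All 4 IFIT genes measured were at least 1.5-fold higher in both lines, with a median step of 0.70 in T387A cells and 1.13 in wild-type cells. IFIT1 and IFIT5 rose, while IFIT3 (adjusted p = 0.0569) and IFIT2 (adjusted p = 0.124) missed the threshold.

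ISG15, the ubiquitin-like modifier, was at 11526.3 in T387A cells and 9546.4 in wild-type cells at 8 h, against 6423.0 in T387A cells and 3711.5 in wild-type cells at 4 h (mean step 1.10 ± 0.15, SE, adjusted p = 0.00296). HERC6, a member of the ISG15 conjugation list, and UBE2L6, a conjugating enzyme, rose with steps of 1.47 and 0.91. USP18, which strips ISG15 and blocks the receptor, was at 369.5 in T387A cells and 206.1 in wild-type cells at 8 h, against 102.0 in T387A cells and 27.1 in wild-type cells at 4 h (adjusted p = 0.00296). USP18 reached the average of 100 through its 8 and 24 h arrays, so its p is no separate support. Of 6 members of this list at 100 or more, 5 were 1.5-fold higher in both lines (1.97% of all genes) and 5 rose (2.76% of all genes in that fit).

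Of 11 genes of nucleic acid sensing at 100 or more, 7 were 1.5-fold higher in both lines, against 1.97% of all genes at that level. None was lower in both, and the median step was 1.27. IFIH1, the RNA sensor MDA5, was at 1300.0 in T387A cells and 876.2 in wild-type cells at 8 h, against 549.5 in T387A cells and 303.6 in wild-type cells at 4 h (adjusted p = 0.00758). DHX58 and TLR3 had steps of 1.58 and 1.49 but were too dim on average for the fit on brighter genes. Guanylate-binding proteins had 4 of 4 members 1.5-fold higher in both lines, led by GBP1 at 1963.5 in T387A cells and 1210.4 in wild-type cells at 8 h, against 764.3 in T387A cells and 327.7 in wild-type cells at 4 h (adjusted p = 0.00494). PARPs and DTX3L, ADP-ribosylation genes, had 5 of 6, with PARP14 at a step of 1.5 (adjusted p = 0.00625).

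Antigen presentation was split. TAP1, which carries peptides into the endoplasmic reticulum, was at 2729.3 in T387A cells and 1563.7 in wild-type cells at 8 h, against 1263.0 in T387A cells and 588.1 in wild-type cells at 4 h (adjusted p = 0.00311). PSMB9 and PSMB8, the immunoproteasome's catalytic subunits, rose with steps of 1.14 and 0.80. Of 10 immunoproteasome and peptide-loading genes, 3 were 1.5-fold higher in both lines and all 10 were higher to some degree, with a median step of 0.46. Among 4 class I genes, HLA-B, HLA-E and HLA-F were 1.5-fold higher in both lines, whereas B2M, the shared light chain, had a step of 0.45 ± 0.11 (SE, adjusted p = 0.0471).

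HLA-B was not in the induced set. At 4 h it stood at 256.2 in T387A cells and 180.4 in wild-type cells, against 168.3 in T387A cells and 194.1 in wild-type cells at 0 h. At 8 h it stood at 610.7 in T387A cells and 401.9 in wild-type cells, and at 24 h at 1634.8 in T387A cells and 1179.8 in wild-type cells. The step from 4 to 8 h had an adjusted p of 0.00311. In wild-type cells HLA-B was not above its 0 h level at 4 h.

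**Figure D2:**
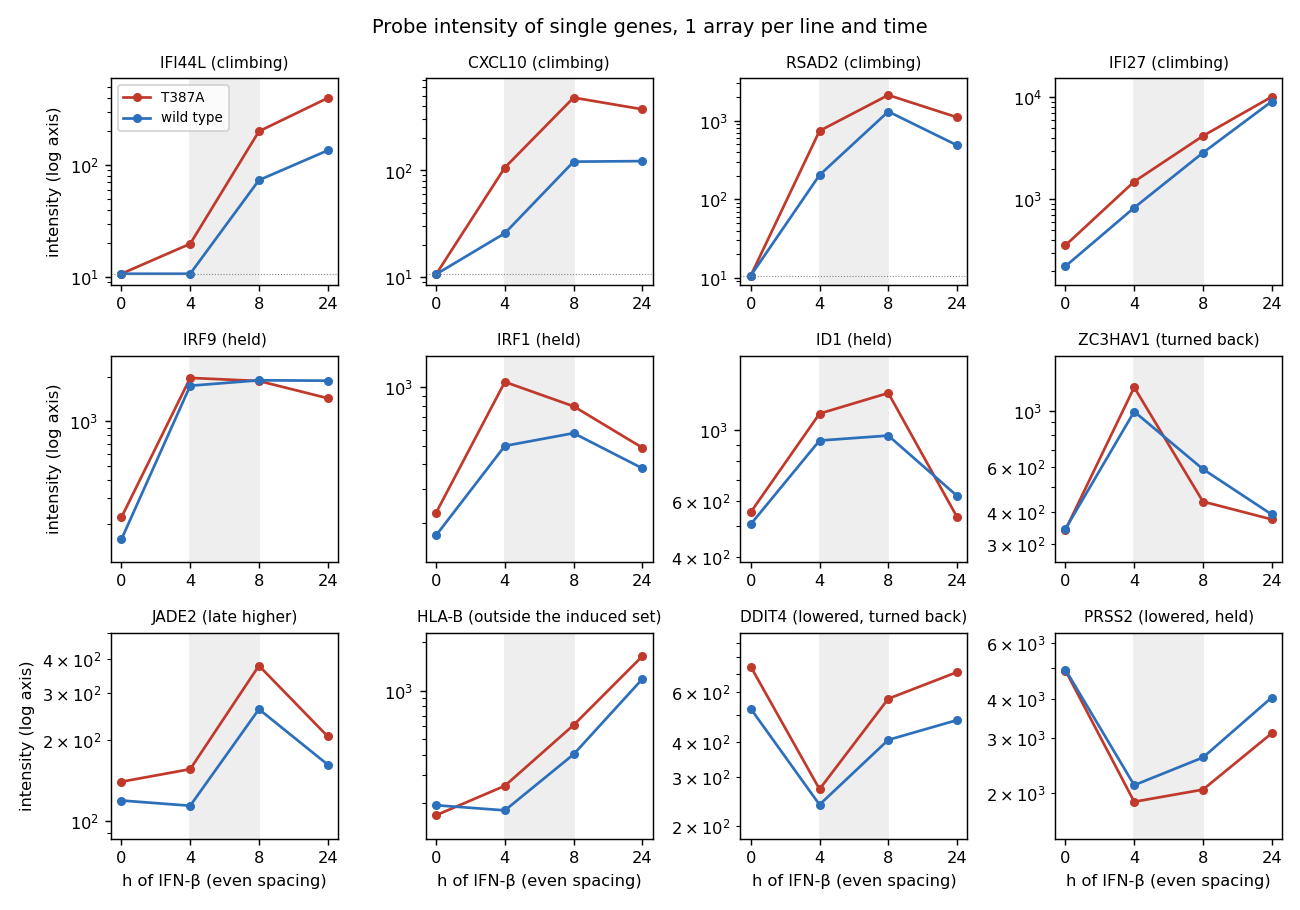
Probe intensity (log axis) of 12 genes at 0, 4, 8 and 24 h of IFN-β, with 1 array per point, T387A cells in red and wild-type cells in blue; the grey band spans 4 to 8 h and the dotted line is the floor of 10.7. IFI44L is under the floor at 4 h in wild-type cells and at 19.8 in T387A cells, IRF9 stays level across the band, ZC3HAV1 is lower at its end than at its start, and JADE2 leaves its 0 h level within it.

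Outside the induced set, 37 genes were also at least 1.5-fold higher at 8 h than at 4 h in both lines. Of them 29 rose, against 2.76% called higher over all 5771 genes, but the 37 were chosen by the same step. For 20 of the 37 the 4 h level lay below 0 h in both lines, and 15 were at least 1.5-fold above 0 h at 8 h in both lines. A large step from 4 to 8 h outside the induced set favours a low 4 h value. The shares of these 2 counts over all genes were not taken, so neither is read as a trait of the 37. A late-higher class was drawn from all genes at 100 or more on any array at 0, 4 or 8 h. It took the 35 that were within 1.5-fold of 0 h at 4 h and at least 1.5-fold above 0 h at 8 h in both lines. JADE2, a scaffold of histone acetyltransferase complexes, was at 378.0 in T387A cells and 260.4 in wild-type cells at 8 h, against 155.8 in T387A cells and 113.9 in wild-type cells at 4 h, a mean step of 1.24 ± 0.11 (SE, adjusted p = 0.000386). RNF19B, a ubiquitin ligase, TLE4, a transcriptional corepressor, and VEGFC, a lymphatic growth factor, rose with steps of 1.39, 1.06 and 0.94. The 24 h arrays of JADE2 were lower again, at 206.3 in T387A cells and 162.0 in wild-type cells. CCL5, another chemokine of the late-higher class, stepped 1.27-fold in T387A cells and 2.27-fold in wild-type cells (adjusted p = 0.0302, and 0.930 with the floor at 100), with 24 h values of 393.7 in T387A cells and 189.7 in wild-type cells. CCL5 reached the average of 100 only with those 24 h values, so its adjusted p is no separate support for the step.

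The held class contained IRF9 and IRF1, transcription factors of the response. IRF9, the DNA-binding subunit of ISGF3, was at 1868.7 in T387A cells and 1889.0 in wild-type cells at 8 h, against 1960.4 in T387A cells and 1735.8 in wild-type cells at 4 h, a mean step of 0.03 ± 0.17 (SE, adjusted p = 0.962). Its 0 h values were 223.2 in T387A cells and 158.5 in wild-type cells, so IRF9 had reached its 8 h level by 4 h. IRF1, an activator of class I genes, was at 798.8 in T387A cells and 580.1 in wild-type cells at 8 h, against 1067.8 in T387A cells and 498.6 in wild-type cells at 4 h. The 2 lines went opposite ways for IRF1, by -0.42 in T387A cells and 0.22 in wild-type cells, and the difference had an adjusted p of 0.755 by limma.

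Other held genes by level were ID1, an inhibitor of basic helix-loop-helix factors, CCND3, a cyclin, BCL2L13, PHACTR4 and the heat shock gene HSPA1B. ID1 was at 1307.9 in T387A cells and 962.1 in wild-type cells at 8 h, against 1127.2 in T387A cells and 928.4 in wild-type cells at 4 h, and it was back near its 0 h level at 24 h. KLF6, an immediate early factor, had a step of 0.23 ± 0.12 (SE). SOCS1, the feedback inhibitor of JAK kinases, stayed under 100 on every array, at 75.1 in T387A cells and 58.2 in wild-type cells at 8 h against 76.1 in T387A cells and 37.3 in wild-type cells at 4 h. IRF7 was under the floor on all arrays. Of 8 genes of interferon signalling and the IRF factors at 100 or more, 2, NMI and IFI35, were 1.5-fold higher in both lines, and the list's median step was 0.14.

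**Figure D3:**
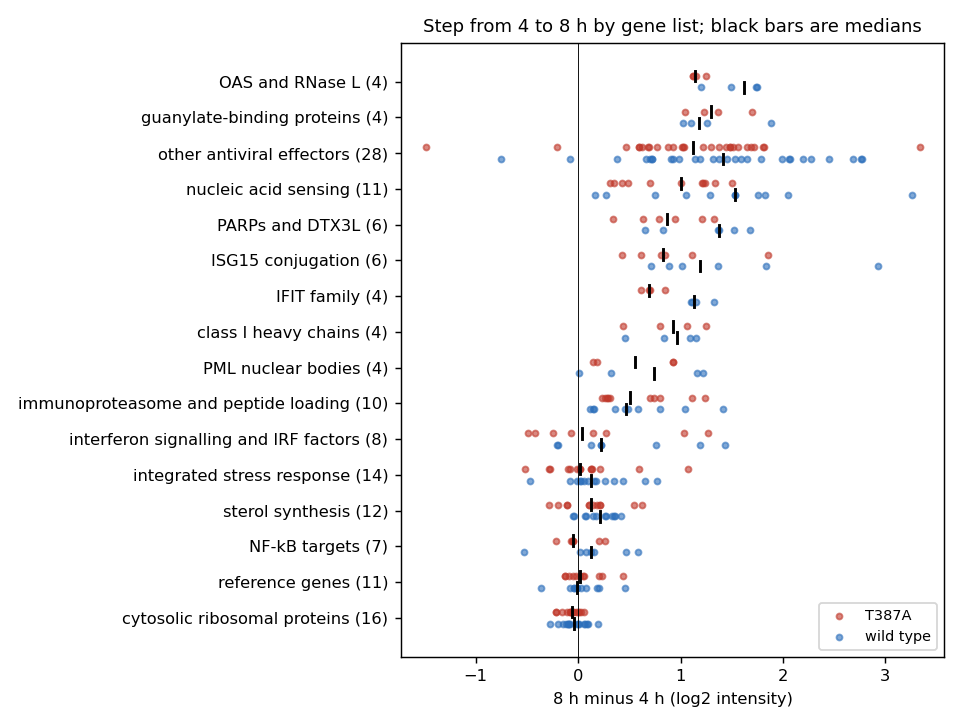
The 8 h minus 4 h difference (log2 intensity) of each gene at 100 or more, by gene list, with T387A cells above wild-type cells in each pair and black bars at the medians; the number of genes is in parentheses. OAS, guanylate-binding, antiviral and sensing genes have medians above 1 in both lines, the interferon signalling list has medians of 0.04 in T387A cells and 0.22 in wild-type cells with NMI and IFI35 highest in both, and reference and ribosomal genes cluster at 0.

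The turned-back class held ZC3HAV1 and ZDHHC11. ZC3HAV1, the zinc-finger antiviral protein ZAP, was at 439.9 in T387A cells and 589.9 in wild-type cells at 8 h, against 1235.8 in T387A cells and 992.4 in wild-type cells at 4 h (mean step -1.12 ± 0.15, SE, adjusted p = 0.00304). By 24 h it was at 374.5 in T387A cells and 391.5 in wild-type cells, near the 0 h values of 340.5 and 343.6 in the same order. The call belongs to 1 probe: the other 2 probes of ZC3HAV1 were higher at 8 h in both lines, with mean steps of 0.40 and 0.61 at intensities up to 247.4. ZDHHC11, a palmitoyltransferase, was the other one, at 50.9 in T387A cells and 62.3 in wild-type cells at 8 h, against 88.6 in T387A cells and 109.8 in wild-type cells at 4 h. It reached 100 only on the wild-type 4 h array, so the level rule took it in through a single high 4 h value. ZDHHC11 was too dim for the fit on brighter genes.

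The remaining 7 genes that were 1.5-fold lower in both lines were outside the induced set, although LTO1 stood at 105.7 in T387A cells and 98.3 in wild-type cells at 4 h, against 60.1 in T387A cells and 55.1 in wild-type cells at 0 h. HNRNPA0, an RNA-binding protein, was at 542.2 in T387A cells and 677.5 in wild-type cells at 8 h, against 1069.4 in T387A cells and 1139.3 in wild-type cells at 4 h (adjusted p = 0.00494). CERK, the ceramide kinase, fell with a mean step of -0.85 (adjusted p = 0.00720) and stood lower still at 24 h, at 86.6 in T387A cells and 118.6 in wild-type cells. UBE2J2, an ubiquitin-conjugating enzyme of the endoplasmic reticulum, had a step of -0.80 (adjusted p = 0.0169), but another, dimmer probe of it was higher at 8 h in both lines. TELO2, ENAH, USP34 and LTO1 had steps of -1.25, -0.72, -0.66 and -0.60 and were too dim for the fit on brighter genes. TELO2 reached 100 only on the T387A 4 h array (126.2), and its wild-type values were 38.4 at 4 h and 22.3 at 8 h. ENAH reached 100 only on the wild-type 4 h array (104.5), and LTO1 only on the T387A 4 h array. The level rule thus took in TELO2, ENAH and LTO1 through a single high 4 h value.

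Among the lowered genes, DDIT4, an inhibitor of mTORC1, had turned back upwards, at 569.2 in T387A cells and 406.1 in wild-type cells at 8 h, against 271.0 in T387A cells and 238.6 in wild-type cells at 4 h (adjusted p = 0.00271). TSC22D3, the glucocorticoid-induced leucine zipper, did the same with a step of 0.62 (adjusted p = 0.0140). The 61 held genes of the lowered set had median steps of 0.08 in T387A cells and 0.16 in wild-type cells. PRSS2, a trypsinogen, was at 2052.6 in T387A cells and 2597.9 in wild-type cells at 8 h, against 1877.5 in T387A cells and 2120.6 in wild-type cells at 4 h, well under its 0 h values of 4917.0 and 4948.4 in the same order. SLC20A1, PSAT1 and ACSS2, for phosphate import, serine synthesis and acetyl-CoA synthesis, had steps of 0.24, 0.11 and 0.21.

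Other gene groups had medians nearer to that of all genes, and their counts past 1.5-fold can be read only against the 1.97% of all genes. Of 16 cytosolic ribosomal proteins 0 passed 1.5-fold in both lines, with a median step of -0.05, and of 11 reference genes 0 did, with a median of 0.02. GAPDH was at 13436.2 in T387A cells and 13036.1 in wild-type cells at 8 h, against 12992.1 in T387A cells and 13143.5 in wild-type cells at 4 h. Sterol synthesis had 0 of 12 genes past 1.5-fold and a median of 0.12, and LSS, of sterol ring closure, rose (step 0.48, adjusted p = 0.0441). The NF-kB targets had 0 of 7 and a median of 0.06. The integrated stress response had 2 of 14, DDIT4 and DDIT3, with PPP1R15A lower (step -0.50, adjusted p = 0.0302).

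By 24 h, 11 of the 83 climbing genes were at least 1.5-fold higher again in both lines and 20 at least 1.5-fold lower. The first group holds IFI27, IFI6, ISG15, IFI44L, IFI35, XAF1 and HLA-E, and the second RSAD2, IFIT2, IFIT3, SAMD9L, TNFSF10, GBP1 and OASL. IFI27, an interferon-inducible membrane protein, was at 355.4, 1495.2, 4188.2 and 10126.7 at 0, 4, 8 and 24 h in T387A cells, and at 221.6, 829.8, 2866.2 and 9106.5 in wild-type cells. RSAD2 was highest at 8 h in both lines, and at 24 h it stood at 1107.9 in T387A cells and 487.8 in wild-type cells. The highest of the 4 times was 8 h in 58 climbing genes and 24 h in 25 in T387A cells, and 8 h in 38 and 24 h in 45 in wild-type cells. The held genes mostly stood lower later: 48 of 53 were lower at 24 h than at 8 h in both lines, by a median of -0.57 in T387A cells and -0.41 in wild-type cells. That is 90.6% of the held genes, against 45.8% of the climbing genes and 33.0% of all genes at 100 or more.

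The 2 lines met the step at different heights. At 4 h the climbing genes were higher in T387A cells for 81 of 83, by a median of 0.85 (log2), and at 8 h for 82 of 83, by a median of 0.58. The gap was 0.13 at 0 h and 0.22 at 24 h. Over all genes at 100 or more, 51.1% were higher in T387A cells at 4 h and 47.3% at 8 h. The step itself was larger in wild-type cells for 63 of the 83 genes (75.9%), against 54.0% of all genes at 100 or more. RSAD2 gave 2.86-fold in T387A cells and 6.44-fold in wild-type cells, and MX1 3.22-fold in T387A cells and 4.84-fold in wild-type cells. No gene passed the test of the difference between the lines' steps by limma: 0 were called at an adjusted p under 0.05, the smallest adjusted p was 0.755, and 880 had an unadjusted p under 0.05, 455 with the more positive step in T387A cells. The gap at any 1 time rests on 1 array per line, so line and array cannot be told apart.

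**Figure D4:**
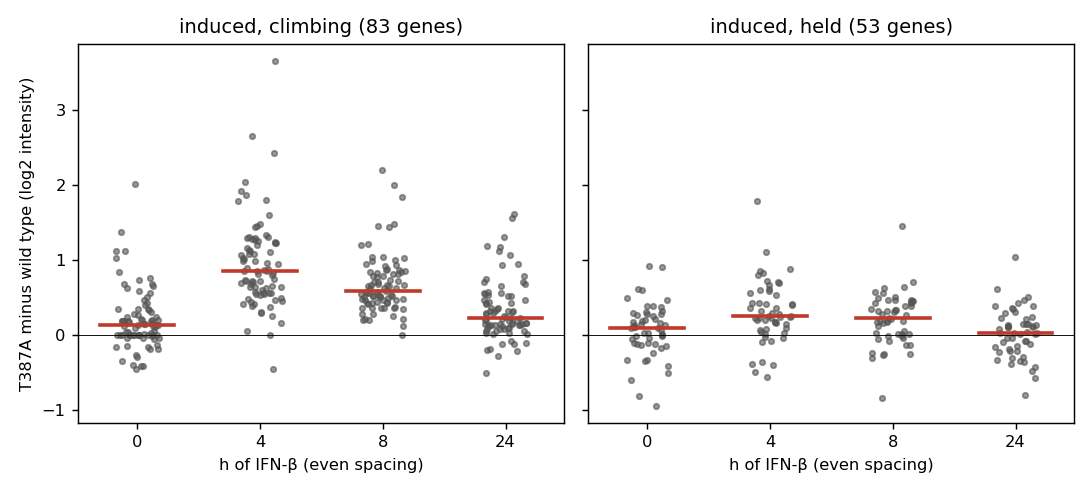
T387A minus wild type (log2 intensity) at 0, 4, 8 and 24 h of IFN-β for the 83 climbing and the 53 held genes; points are genes, spread sideways for legibility, and red bars are medians. The medians of the climbing genes are 0.13, 0.85, 0.58 and 0.22, and those of the held genes 0.09, 0.24, 0.23 and 0.03.

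The ISRE letters were more frequent in the promoters of climbing genes than in those of held genes, a count given with no test. The classes also differed in size of induction. The median 8 h minus 0 h difference (log2) of climbing genes was 3.26 in T387A cells and 2.88 in wild-type cells. For held genes it was 1.07 in T387A cells and 0.90 in wild-type cells. Course and size of induction cannot be told apart in this count. RefSeq promoter windows (GRCh38.p14, from 250 bases before to 50 after a start site) were searched on both strands for GAAANNGAAA, the core of the ISRE, and TTCNNNGAA, that of the GAS, which reads the same on both strands. The matches of the 2 motifs may overlap. The ISRE letters were in a window of 40 of 64 climbing genes with a window (62.5%), 4 of 16 mixed induced genes (25.0%) and 3 of 42 held genes (7.14%). They were also in 5 of 28 late-higher genes (17.9%) and 2 of 49 held genes of the lowered set (4.08%). Of all 10765 tested genes with a window, 441 (4.10%) held them, as did 3.57% of all RefSeq windows. The GAS letters were in 16 climbing genes (25.0%) and 5 held genes (11.9%), against 8.77% of all tested genes and 7.66% of all windows. These stretches show the letters, in capitals, for 6 climbing genes of different roles and for IRF9 and IRF1, the held members of the interferon signalling list.
RSAD2: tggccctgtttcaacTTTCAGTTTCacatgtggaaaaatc
CXCL10: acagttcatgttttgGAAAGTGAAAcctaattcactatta
DDX60: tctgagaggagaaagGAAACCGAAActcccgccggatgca
ISG15: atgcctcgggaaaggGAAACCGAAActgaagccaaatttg
IFIT1: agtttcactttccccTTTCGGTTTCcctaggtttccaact
IFI27: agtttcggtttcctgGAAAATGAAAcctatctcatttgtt
IRF9: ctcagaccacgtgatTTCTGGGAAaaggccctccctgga
IRF1: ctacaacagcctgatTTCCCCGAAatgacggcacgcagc

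Each is written 5′ to 3′ in the direction of its gene, so capitals that begin with TTTC are the ISRE letters on the other strand. The stretch of RSAD2 is at chr2:6877617-6877656 (plus strand), that of CXCL10 at chr4:76023694-76023733 (minus), that of DDX60 at chr4:168318781-168318820 (minus) and that of ISG15 at chr1:1013375-1013414 (plus). Those of IFIT1 and IFI27 are at chr10:89392505-89392544 (plus) and chr14:94110626-94110665 (plus). The capitals of IRF9, at chr14:24161187-24161225 (plus), and of IRF1, at chr5:132490874-132490912 (minus), are GAS letters. No ISRE letters were found before the start sites in the windows of IRF9 and IRF1. Matches that run past a start site were counted above but not listed by gene. Another held transcription factor, ATF5, named here after its matches were seen, holds ISRE letters. DDX60, ISG15, IFIT1 and IFI27 each held a further ISRE match in the same window. The match starts 145 bases before the start site in RSAD2, 221 in CXCL10, 53 in DDX60, 107 in ISG15, 103 in IFIT1, 63 in IRF9 and 124 in IRF1.

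**Figure D5:**
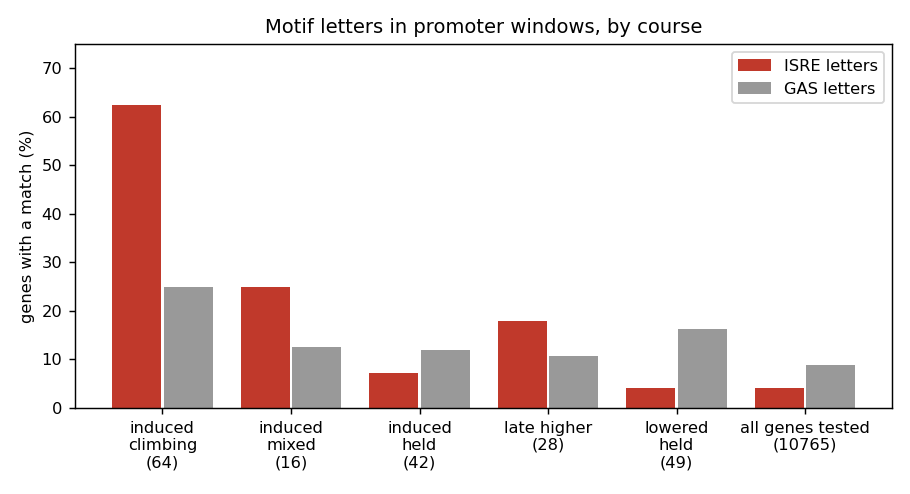
Share of genes (percent) with the ISRE letters (red) or the GAS letters (grey) in at least 1 promoter window, by course, with the number of genes that had a window in parentheses. The ISRE bar of the climbing genes reaches 62.5%, against 7.14% in the induced genes that held and 4.10% over all genes tested.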

How the data were processed

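The deposited table gives linear intensities of 47315 probes on 8 bead arrays, which the authors made with GenomeStudio, per the submitters' processing notes (version and settings not given in the sources used here). Judged by themselves, the deposited intensities are background-subtracted (28.6% are at or below 0) and quantile-normalized (78.6% of ranks are identical on all arrays), so no scaling was added. Probes with 1 gene symbol in the probe table (30111) named 20045 genes, and the brightest probe stood for a gene. Values under 10.7 were set to 10.7 and log2 was taken.

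Limma 3.58.1 in R 4.3.3 fitted time as 4 levels plus line on all 8 arrays (3 residual degrees of freedom), with 8 h minus 4 h as the contrast. A second fit tested the difference of the lines' steps. Each line and time has 1 array, and precision is limited by that number. Across all 13656 genes the 8 h minus 4 h contrast called none, large mean steps included. USP18, at 5.25-fold, had a limma adjusted p of 0.259 there, and IFI44L, at 8.32-fold or more, one of 0.241.

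The members, gene lists and course rules were chosen with earlier results of these data known. Named genes were the largest 15 steps each way at an intensity of 100 or more (15 higher; 9 lower existed), up to 4 of each list, up to 6 of each course and fixed single genes. Because no gene was called, these were filled by size among genes 1.5-fold apart in both lines. Alternatives were other floors, an offset of 16, loess, other filters, the mean of probes, another prior and omission of arrays.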

Additional observations from a re-analysis of the deposited data

Results flagged for a closer look

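LTBP4, a latent TGF-beta binding protein, was the only gene at an intensity of 100 or more that moved by at least 1.5-fold in opposite directions in the 2 lines, by 0.66 (log2) in T387A cells and -0.97 in wild-type cells. It was at 98.4 in T387A cells and 62.2 in wild-type cells at 8 h, against 62.2 in T387A cells and 122 in wild-type cells at 4 h. It drew attention because the lines went opposite ways; in the test of the lines' steps its adjusted p was 0.885 by limma.

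Probes without a single gene symbol are outside all gene results. Of 1522 such probes at 100 or more, 13 were at least 1.5-fold higher at 8 h than at 4 h in both lines and 1 at least 1.5-fold lower. At 2-fold there were 2 higher probes, a signal in data no comparison used.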

How the results depend on the processing

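Across all 13656 genes limma called 0 higher and 0 lower genes with cyclic loess, a doubled floor, averaged probes, a filter on 4 arrays, the 4 arrays alone, no line term, and after omission of both 0 h arrays, both 24 h arrays or any single array. A floor at 100 gave 56 higher and 10 lower, an offset of 16 gave 87 and 3, and a trended and robust prior gave 8 and 0. Restricting the test to genes averaging 100 or more, chosen after seeing the data, gave 159 and 36, 351 and 230 on the 4 arrays alone, and 0 and 0 without the line term, which pairs the arrays within a line. Within that restriction the counts were 160 and 29 without 1 of the 0 h arrays (either line), 99 and 4 without the T387A 4 h array, 37 and 2 without the wild-type 4 h array, 58 and 2 without the T387A 8 h array, 94 and 17 without the wild-type 8 h array, and 200 and 63 without 1 of the 24 h arrays (either line). The cause of these shifts was not tested. Among all genes tested, 105 had a residual SD under 0.01, and 100 of those had no array at 100.

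The test of the lines' steps called 0 genes with a trended prior, a floor at 100 and loess too; without both 0 h arrays it has no residual degrees of freedom and was not run. At 2-fold instead of 1.5-fold, 94 genes were induced, 46 climbing, 28 held and 0 turned back, and 9 were lowered, of which 9 were held and 0 turned back. With a level of 50, 81 induced genes were held, 5 had turned back and 114 genes were lowered. With a level of 200, 1 had turned back and 21 were late-higher. A mean of 100 over the arrays and an offset of 16 each left 1 turned back, and the mean of probes left 0. With the set drawn by the 4 h level alone, a rule added after seeing the data, 3 induced and 6 lowered genes had turned back, and 62 genes were still climbing. The offset left 38 lowered genes, 36 held and 1 turned back. Between 70 and 83 of the 83 climbing genes were still in that class under each setting other than 2-fold, which kept 46, and the 4 h rule, which kept 62.

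Of 731 single-gene values for 37 genes, 669 had the same direction and side of the threshold, 57 passed it and 5 reversed. Leaving out single arrays moved IRF1 between -0.45 and 0.25, IRF9 between -0.047 and 0.10, SOCS1 between -0.14 and 0.76 and GAPDH between -0.024 and 0.060. The residual SD was 0.319 (log2) for genes averaging under 50 and 0.105 above 1000, so steps of dim genes are the least certain.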

Other observations

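Some genes of other lists also passed the fit on brighter genes; with the floor at 100, the calls of NR1D2, PER2, CDT1, GDF15, FBXO32 and CASP1 ended. The circadian repressors NR1D2 and PER2 fell with steps of -0.72 (limma adjusted p = 0.00965) and -0.69 (adjusted p = 0.0112). NR1D2 was at 72.8 in T387A cells and 61.4 in wild-type cells at 8 h, against 101.3 in T387A cells and 119.9 in wild-type cells at 4 h, below the 0 h values of 137.8 and 147.4 in the same order. NR1D2 and FBXO32 belonged to the lowered set. CDT1, which licenses replication origins, was at 248.1 in T387A cells and 275.9 in wild-type cells at 8 h, against 396.1 in T387A cells and 412.9 in wild-type cells at 4 h (adjusted p = 0.0139), and its 0 h values were 225.7 and 222.1 in the same order. GDF15, a stress-induced cytokine, rose with a step of 0.54 (adjusted p = 0.0233), with 4674.9 in T387A cells and 5202.5 in wild-type cells at 8 h against 3273.4 in T387A cells and 3516.6 in wild-type cells at 4 h. FBXO32, a FOXO-driven ubiquitin ligase, rose with a step of 0.69 (adjusted p = 0.00719), but both lines stayed under their 0 h level, at 130.5 in T387A cells and 132.0 in wild-type cells at 8 h, against 242.3 in T387A cells and 222.1 in wild-type cells at 0 h.

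CASP1, the inflammasome caspase, was at 341.5 in T387A cells and 174.0 in wild-type cells at 8 h, against 134.4 in T387A cells and 44.6 in wild-type cells at 4 h (adjusted p = 0.00686). CASP1 reached the average of 100 through its 8 and 24 h arrays, so that p is no separate support. The wild-type 4 h value of CASP1 lay below the 77.7 of wild-type cells at 0 h, while the T387A value at 4 h lay above the 80.1 of T387A cells at 0 h. NMI, an interferon-inducible binding partner of IFI35, showed the same arrangement, with 179.2 in T387A cells and 131.0 in wild-type cells at 4 h, against 105.8 in T387A cells and 159.8 in wild-type cells at 0 h.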
